A study of Mus musculus with 6 samples.

Results

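The genes described here are 34 actin, myosin and contractile genes, listed by name and matched to the gene symbols of the 6 libraries, which hold 40879 symbols in all. All 34 were found and 33 passed the filter on low counts. The labels describe both groups as primary hepatic stellate cells from male wild-type mice after 24 h of culture. There were 3 libraries with vehicle and 3 with APB-R3, an engineered IL-18 binding protein. In every library endothelial markers exceeded stellate cell markers, as given further on, so the levels cannot be assigned to stellate cells alone. The labels give no strain, age or allele, and they state the dose as 150 µg/ml in one place and 150 µg/kg in another. RNA was counted at the 3' end of transcripts, so long genes gather no more counts than short ones. Levels in CPM, which scales the counts of each library to a common total, are therefore set side by side between genes. Such comparisons are uncertain for genes whose 3' end shares sequence with other genes, as given further on. The labels do not say whether the 3 libraries of a group came from separate animals or cultures, so every p-value measures only the spread between these libraries, which may be technical.

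Actin filaments with bundled myosin II form the stress fibres by which a cell pulls on its surroundings. Smooth muscle cells and activated stellate cells add muscle-type versions of these proteins, above all the smooth muscle actin ACTA2, to the non-muscle versions that every cell uses. When monomeric actin is used up by filament growth, cofactors of the MRTF family are released and activate serum response factor (SRF), a transcription factor that binds the CArG box and drives many actin and contractile genes. In the liver the loss of retinoid and the gain of ACTA2 are the classical signs of stellate cell activation.

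Members were first looked at for the CArG box in the RefSeq promoter windows of build GRCm38.p6, which run from 250 bases before to 50 bases after an annotated start. The motif is named here without its letters, was searched on both strands and overlaps no other motif searched. An exact box stood in 5 of the 30 members with a window (16.7%), against 1.81% of all 27025 genes with a window and 1.53% of the 9932 tested genes with one. These members were Srf itself, Actg1, Cnn2, Myl9 and Myl6. None of the 4 smooth muscle members with a window (Acta2, Cnn1, Lmod1 and Des) had an exact box, and Acta2 and Lmod1 had boxes that are 1 base off. The smooth muscle genes Tagln and Myh11 had no window and were not searched, nor was any sequence outside the windows. Allowing 1 base off, 46.7% of members and 23.8% of all genes held a box. A match is a run of letters, not a measured binding site. The stretches before the start of 5 members are shown with the motif in capitals: exact boxes in Srf, Actg1, Cnn2 and Myl9, and the boxes 1 base off in Acta2. The first 4 are shown because they hold an exact box, which 25 of the 30 members lack. Myl6, which also holds an exact box, is not shown. Acta2 is shown because it stood furthest from 0 relative to its error. Boxes 1 base off are left in lower case in the first 4, as for 1 in Srf.
Srf, chr17:46556185-46556274, minus strand: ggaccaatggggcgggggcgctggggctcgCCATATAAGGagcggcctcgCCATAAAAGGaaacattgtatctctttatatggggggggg
Actg1, chr11:120348546-120348615, minus strand: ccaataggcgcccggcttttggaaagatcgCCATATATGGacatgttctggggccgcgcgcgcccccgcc
Cnn2, chr10:79988514-79988583, plus strand: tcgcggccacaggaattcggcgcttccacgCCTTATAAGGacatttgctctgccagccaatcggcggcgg
Myl9, chr2:156775273-156775342, plus strand: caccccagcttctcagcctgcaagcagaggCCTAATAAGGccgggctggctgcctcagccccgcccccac
Acta2, chr19:34255374-34255487, minus strand: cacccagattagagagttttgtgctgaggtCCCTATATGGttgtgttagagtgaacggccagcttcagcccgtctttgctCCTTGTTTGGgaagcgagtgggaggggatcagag

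Library totals ran from 10431310 to 10573916 counts in vehicle and from 8323809 to 10792531 in APB-R3, with the lowest total in APB-R3 replicate 1. Markers of several liver cell types were counted beside the contractile genes, and a bulk library cannot tell fewer cells of a type from less RNA per cell. The 18 stellate cell markers summed to between 650 and 706 CPM in vehicle and 651 and 728 CPM in APB-R3. Dcn (308 ± 21.8 CPM), Col1a1 (139 ± 14.6 CPM) and Ecm1 (72.8 ± 8.10 CPM; SD, n = 6) led them, and Col3a1 (58.3), Hgf (46.6), Rgs5 (14.0), Reln (11.5) and Hand2 (10.1 CPM) also had means above 10 CPM. The other 10 stellate markers had lower means, among them the retinoid enzyme gene Lrat (1.68 ± 0.677 CPM) and, at the lowest level, Ngfr (0.131 CPM) and Colec10 (0.0159 CPM). The 20 endothelial markers, led by Lyve1 (1715 ± 126 CPM), Cdh5 and Pecam1, summed to 8955 to 9887 CPM in vehicle and 8179 to 9820 CPM in APB-R3. In every library the endothelial markers thus exceeded those of the labelled cell type. The 16 macrophage markers, led by Fcer1g, Cd5l and Lyz2, summed to 570 to 768 CPM and 641 to 892 CPM. Portal fibroblast and mesothelial markers, led by Fbln2, Cd34 and Krt19 with Gli1 at 0, summed to 109 to 127 CPM and 93.9 to 121 CPM over 14 genes. Most of that was Fbln2 (67.4 ± 8.33 CPM) and Cd34 (34.9 ± 3.61 CPM). Krt19 had 2.65 CPM, and the median of the 14 means was 0.810 CPM. Of 11 further markers of vascular smooth muscle, Pln, Map3k7cl and Susd5 had 0 counts in all 6 libraries, which allows up to 0.0494 CPM each. The 11 summed to 17.8 to 26.7 CPM in vehicle and 23.8 to 34.4 CPM in APB-R3, and most of that was Rgs4 (20.4 ± 5.88 CPM), ahead of Mustn1 and Kcnmb1. The 12 hepatocyte markers, led by Alb, Ass1 and Fgb, summed to 89.9 CPM in vehicle replicate 2 and to between 12.9 and 22.8 CPM in the other 5 libraries. The part of any of these cell types in the values of the contractile genes was not tested.

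The 34 members together took 2.39% to 2.54% of the counts of a library, and most were genes that every cell uses. The highest means over the 6 libraries were those of the non-muscle actin gene Actb (6739 ± 379 CPM) and of Tmsb4x (3846 ± 667 CPM), whose product holds actin monomers. The intermediate filament gene Vim (2077 CPM), the transgelin gene Tagln2 (1432 CPM) and the tropomyosin gene Tpm4 (1350 CPM) followed. In every library 20 members exceeded 100 CPM, and 6 members had means under 10 CPM. Of those 6, Cnn1, Myh11, Lmod1 and Des belong to the 6 smooth muscle genes, and the others were Actg2 and Actg1. Only Tagln (237 ± 46.9 CPM) and Acta2 (114 ± 20.7 CPM; SD, n = 6) among the smooth muscle genes stood above 10 CPM.

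**Figure D1:**
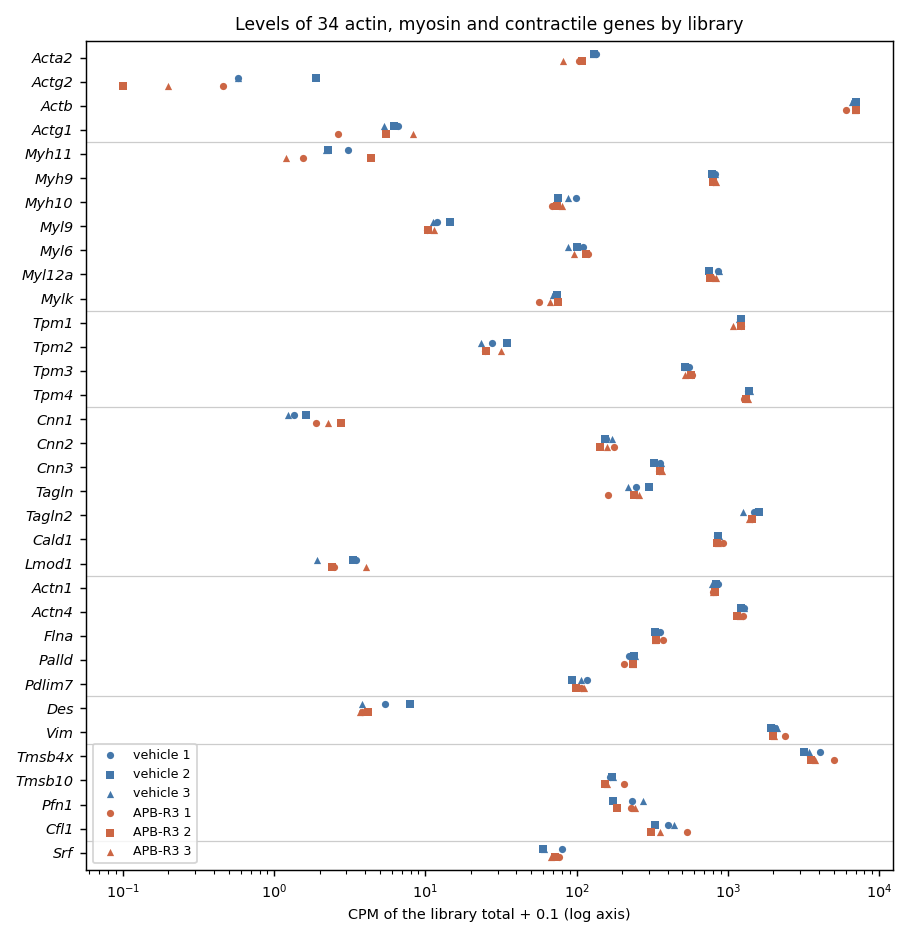
Level of each of the 34 members in each library, as CPM of the library total plus 0.1 on a log axis, with vehicle in blue and APB-R3 in orange and 1 marker shape per replicate number. Most members lie at the same level in all 6 libraries, while Acta2 lies lower in the 3 APB-R3 libraries and the genes under 10 CPM scatter.

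None of the members passed edgeR's quasi-likelihood test between APB-R3 and vehicle at an adjusted p under 0.05, in a comparison in which 0% of the 12776 tested genes passed. The fitted log2 fold change was below 0 in 21 of the 33 tested members and above 0 in 12, with a median of −0.03, against 49.3% below 0 and a median of 0.003 over all tested genes. At an unadjusted p under 0.05 stood Acta2 and Myh10, both lower, beside 1.57% of all tested genes on the lower side, and 0 members beside 1.75% on the higher side. Among the tested members every APB-R3 library lay below every vehicle library in Acta2 and Tpm4, as in 4.16% of all tested genes. Every APB-R3 library lay above in Cnn1, as in 4.75% of all tested genes. The unadjusted 95% interval around the log2 fold change lay within −0.5 and 0.5 for 25 of the 33. The other 8 were Acta2, Tagln, Myl9 and 5 of the 6 genes under 10 CPM.

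**Figure D2:**
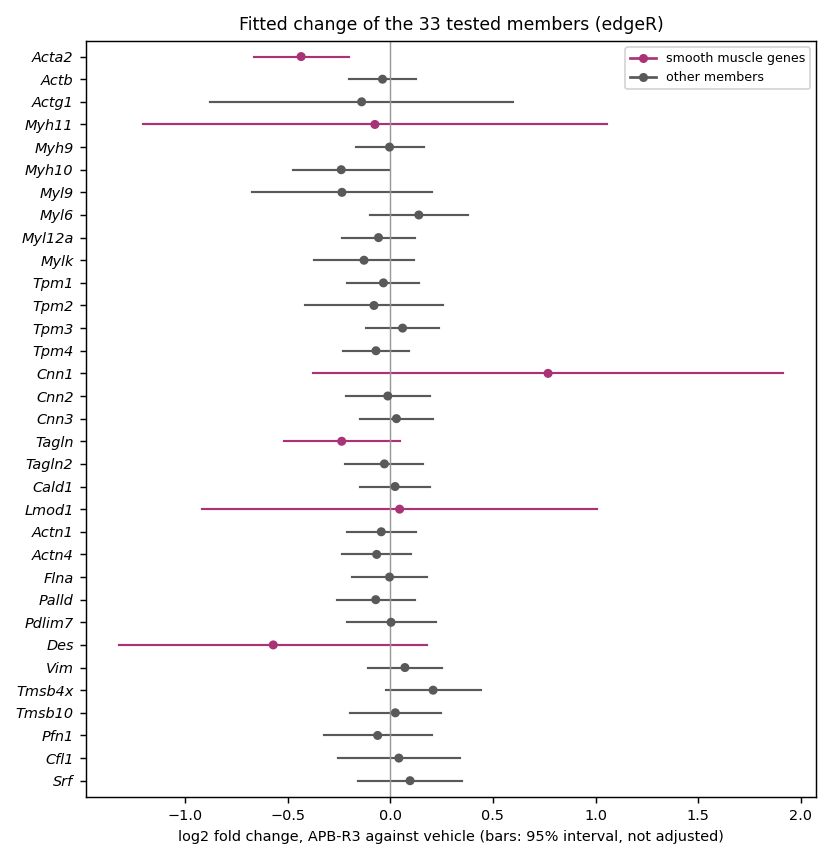
Fitted log2 fold change of APB-R3 against vehicle for the 33 tested members (points) with the unadjusted 95% interval from edgeR (bars), smooth muscle genes in purple and other members in grey. The interval of Acta2 runs from −0.67 to −0.20, that of Myh10 ends just below 0, and those of the other 31 members include 0.

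Among the actin genes the muscle and non-muscle types lay at very different levels. Acta2, the smooth muscle alpha-actin, had 133, 131 and 129 CPM in vehicle replicates 1 to 3 and 103, 108 and 80.6 CPM in APB-R3 replicates 1 to 3. All 3 APB-R3 libraries were thus lower, and the vehicle libraries lay close together. Its log2 fold change was −0.43 (SE 0.11, edgeR adjusted p = 0.9998), and it ran from −0.53 to −0.31 with 1 library left out at a time. Its adjusted p was 0.73 in DESeq2, 0.078 in edgeR with the replicate number as a block, 0.052 in edgeR without the filter on low counts, and between 0.63 and 0.99998 in the other alternatives. Actb, the non-muscle beta-actin, had 6854, 6982 and 6611 CPM in vehicle and 6034, 7071 and 6884 CPM in APB-R3. Its groups overlapped, and its lowest value was in APB-R3 replicate 1. Of the counts of the 4 actin genes Acta2 held 1.91%, 1.84% and 1.91% in vehicle and 1.68%, 1.50% and 1.16% in APB-R3. The groups did not overlap in this share. Actb held 98.0% to 98.7% of these counts, so the share largely restates the Acta2 and Actb levels and is no separate sign.

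Actg2, the enteric smooth muscle gamma-actin, had 5, 19 and 5 counts in vehicle and 3, 0 and 1 in APB-R3 and was not tested. In CPM its APB-R3 libraries (0.36, 0 and 0.10) all lay below the vehicle libraries (0.48, 1.80 and 0.48), at a level of few counts. The 0 in APB-R3 replicate 2 allows up to 0.278 CPM. Actg1, the cytoplasmic gamma-actin that non-muscle cells usually make beside beta-actin, had 6.52, 6.05 and 5.23 CPM in vehicle and 2.52, 5.37 and 8.24 CPM in APB-R3, about the level of Des. Its groups overlapped, with both the lowest and the highest value in APB-R3. Whether its low level reflects expression or the assignment of reads was not tested, and the sequence that its 3' end shares with other genes is given further on.

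Myosin II is built of a heavy chain, an essential and a regulatory light chain, and its activity is set in part by the kinase MYLK. Myh9, the main non-muscle heavy chain gene, had 790 to 827 CPM in vehicle and 802 to 832 CPM in APB-R3, and a log2 fold change of −0.004 (SE 0.08, interval from −0.17 to 0.16). Myh10, the non-muscle IIB chain gene, had 99.0, 75.5 and 87.8 CPM in vehicle and 69.0, 73.9 and 79.9 CPM in APB-R3. Its groups overlapped, and the log2 fold change was −0.24 (SE 0.11, edgeR adjusted p = 0.9998) and −0.14 without vehicle replicate 1. Of the counts of the 3 heavy chain genes Myh10 held 8.70% to 10.8% in vehicle and 7.91% to 8.75% in APB-R3.

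Myh11, the smooth muscle heavy chain gene, had 2.97, 2.18 and 2.09 CPM in vehicle and 1.44, 4.26 and 1.09 CPM in APB-R3, at most 0.484% of the heavy chain counts of a library. Its fold change followed single libraries, with a log2 value of −0.94 when APB-R3 replicate 2 was left out and 0.27 when APB-R3 replicate 3 was. Among the light chains Myl12a, a non-muscle regulatory chain, stood at 748 to 872 CPM over all libraries, and Myl6, the essential chain, at 87.8 to 119 CPM. Myl9, the regulatory chain of smooth muscle, had 11.8, 14.4 and 11.1 CPM in vehicle and 10.2, 10.4 and 11.2 CPM in APB-R3. The log2 fold change of Myl9 was −0.24 (SE 0.21) and −0.11 without vehicle replicate 2, its highest library. Mylk had 71.3, 74.1 and 69.4 CPM in vehicle and 56.1, 74.7 and 66.1 CPM in APB-R3, with overlapping groups.

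Tropomyosins are coiled coils that lie along the actin filament and decide which proteins may bind it. Tpm4 (43.9% ± 0.692 of tropomyosin counts in vehicle) and Tpm1 (38.2% ± 0.605) led the family, ahead of Tpm3 (17.0% ± 0.645) and the muscle gene Tpm2 (0.907% ± 0.179; SD, n = 3). Tpm4 had 1365, 1378 and 1398 CPM in vehicle and 1271, 1327 and 1361 CPM in APB-R3. The groups did not overlap, but the log2 fold change was −0.07 (SE 0.08), with an interval from −0.23 to 0.09. Tpm1 lay between 1080 and 1227 CPM, Tpm3 between 518 and 581 CPM and Tpm2 between 23.3 and 34.7 CPM, each with overlapping groups.

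Calponins, transgelins, caldesmon and leiomodin bind along actin filaments and regulate contraction or filament length. Tagln, the smooth muscle transgelin SM22, had 248, 302 and 219 CPM in vehicle and 160, 239 and 256 CPM in APB-R3. The groups overlapped, and APB-R3 replicate 1 stood apart as the lowest library. The log2 fold change was −0.24 (SE 0.14, edgeR adjusted p = 0.9998), and it was −0.06 without APB-R3 replicate 1 and −0.09 without vehicle replicate 2. The library that was lowest for Acta2 (APB-R3 replicate 3) was thus the highest of its group for Tagln.

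Cnn1, the smooth muscle calponin, had 13, 16 and 12 counts in vehicle (1.25, 1.51 and 1.14 CPM) and 15, 29 and 22 counts in APB-R3 (1.80, 2.69 and 2.18 CPM). All 3 APB-R3 libraries were higher in CPM, and the log2 fold change was 0.77 (SE 0.55, edgeR adjusted p = 0.9998), between 0.60 and 0.90 with 1 library left out. Its interval, from −0.38 to 1.91, is among the widest. Lmod1, the leiomodin that nucleates actin filaments in smooth muscle, had 1.81 to 3.36 CPM in vehicle and 2.32 to 3.97 CPM in APB-R3. The non-muscle relatives were far more abundant, with Cnn2 between 143 and 175 CPM, Cnn3 between 327 and 367 CPM and Tagln2 between 1255 and 1595 CPM. The caldesmon gene Cald1, which was put in neither the smooth muscle nor the non-muscle set, lay between 841 and 934 CPM. None of these 4 had an absolute log2 fold change above 0.03.

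Crosslinkers hold the filaments of a stress fibre together. The alpha-actinin genes Actn1 and Actn4 lay at 790 to 854 CPM and 1156 to 1285 CPM. The filamin gene Flna lay at 330 to 371 CPM, the palladin gene Palld at 207 to 244 CPM and the LIM-domain scaffold gene Pdlim7 at 92.4 to 116 CPM. Their log2 fold changes ran from −0.07 to 0.003, and the groups of all 5 overlapped.

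Of the intermediate filament genes, Des, which encodes the muscle protein desmin used to identify rodent stellate cells, had 5.27, 7.85 and 3.71 CPM in vehicle and 3.72, 4.08 and 3.57 CPM in APB-R3. Vehicle replicate 2 was the highest, and it was also the library with the high hepatocyte markers. The log2 fold change was −0.57 (SE 0.36) with all libraries and −0.24 without that library. Vim, made by mesenchymal and endothelial cells alike, had 1916 to 2118 CPM in vehicle and 1980 to 2396 CPM in APB-R3. Des thus made up 0.155% to 0.408% of the summed counts of Des and Vim.

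**Figure D3:**
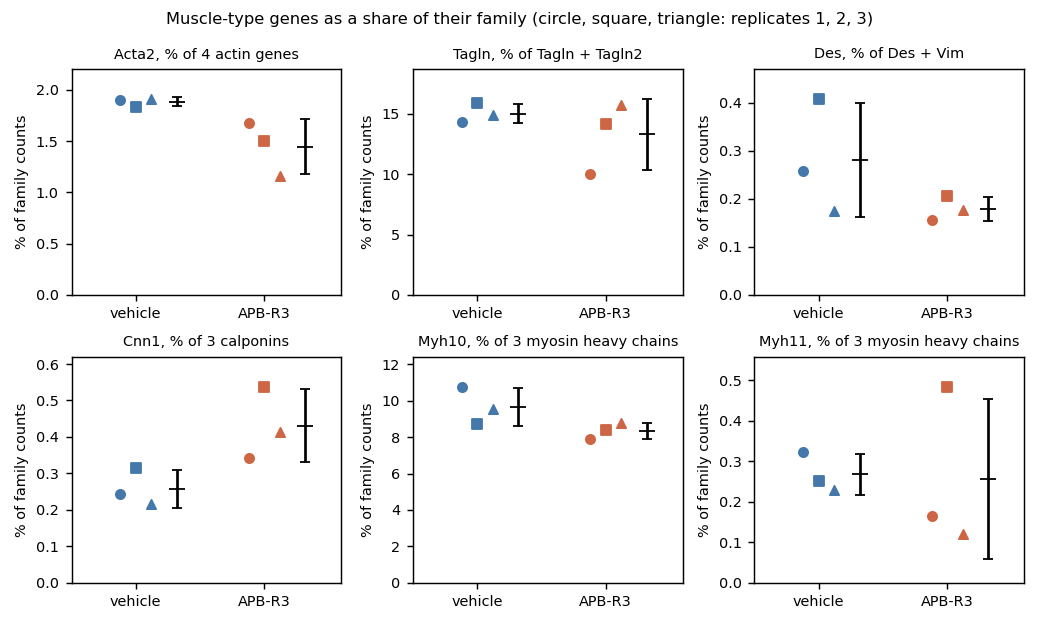
Counts of 6 muscle-type or minor genes as a percentage of the counts of their family in each library, with circle, square and triangle for replicates 1, 2 and 3 and black bars for the mean ± SD (n = 3). The Acta2 share is lower and the Cnn1 share higher in all 3 APB-R3 libraries, while the shares of Tagln, Des, Myh10 and Myh11 overlap between the groups.

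Genes of actin turnover set the supply of actin monomers and the lifetime of filaments. Tmsb4x, the thymosin that keeps actin monomers in reserve, had 4065, 3210 and 3417 CPM in vehicle and 5064, 3529 and 3791 CPM in APB-R3. APB-R3 replicate 1 was the highest, and the log2 fold change of 0.21 (SE 0.11, edgeR adjusted p = 0.9998) was 0.03 without it. Cfl1, the filament-severing cofilin, had 404, 328 and 438 CPM in vehicle and 540, 311 and 356 CPM in APB-R3. Its log2 fold change of 0.04 (SE 0.14) turned to −0.24 without APB-R3 replicate 1 and to −0.06 without vehicle replicate 2. The related thymosin gene Tmsb10 had 155 to 206 CPM, again with the highest value in APB-R3 replicate 1. The profilin gene Pfn1, whose product feeds monomers to growing filaments, had 174 to 276 CPM, with both its lowest and its highest value in vehicle.

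Of the 28 members with a mean of at least 10 CPM, APB-R3 replicate 1 held the highest value in 9 and the lowest in 7, and vehicle replicate 2 the highest in 5 and the lowest in 9. Over all 8467 tested genes at that level, APB-R3 replicate 1 held the highest value in 21.2% and the lowest in 23.3%, and vehicle replicate 2 in 16.3% and 19.5%. APB-R3 replicate 1, the library with the fewest counts, was high for Tmsb4x, Tmsb10, Cfl1 and Vim and low for Tagln, Mylk, Actb and Palld.

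**Figure D4:**
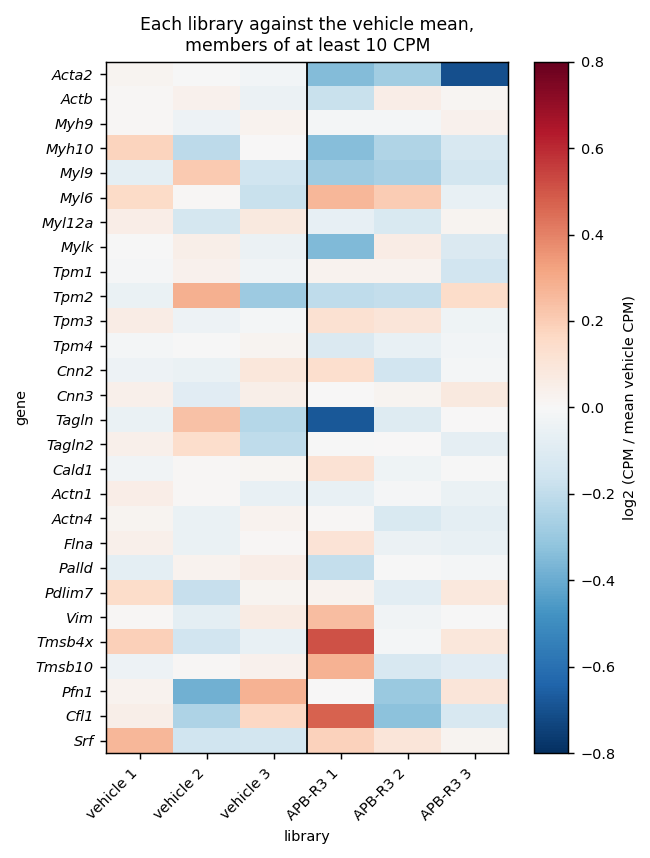
Level of the 28 members of at least 10 CPM in each library as log2 of its CPM over the mean vehicle CPM (red higher, blue lower, the scale ending at ±0.8), with vehicle left and APB-R3 right of the line. The darkest cells are Acta2 in APB-R3 replicate 3 and Tagln in APB-R3 replicate 1 (low) and Tmsb4x and Cfl1 in APB-R3 replicate 1 (high).

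The 6 smooth muscle genes were then set against 19 genes of the non-muscle cytoskeleton. The latter were Actb, Actg1, Actn1, Actn4, Myh9, Myh10, Myl6, Myl12a, Flna, Tpm3, Tpm4, Tagln2, Cnn2, Cnn3, Tmsb4x, Tmsb10, Pfn1, Cfl1 and Vim. Of these, Vim is an intermediate filament gene. The summed level of the smooth muscle genes was 394, 448 and 357 CPM in vehicle and 272, 360 and 348 CPM in APB-R3. That of the non-muscle genes was 22045, 20844 and 21045 CPM in vehicle and 22498, 21136 and 21407 CPM in APB-R3. The log2 ratio of the sums was −5.81, −5.54 and −5.88 in vehicle and −6.37, −5.87 and −5.94 in APB-R3. The groups overlapped, since APB-R3 replicate 2 lay just above vehicle replicate 3. The difference between the group means was −0.32, with SDs of 0.179 and 0.268 (n = 3 each). It was −0.17 without APB-R3 replicate 1 and −0.06 without that library and vehicle replicate 2. Acta2 and Tagln carry nearly all of the smooth muscle sum. In the non-muscle sum Actb (6739 CPM), Tmsb4x (3846 CPM) and Vim (2077 CPM) had the highest means.

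The fitted values of the 6 genes did not share a sign. Acta2, Tagln, Des and Myh11 lay below 0 and Cnn1 and Lmod1 above, for a median log2 fold change of −0.16 that turned to 0.04 without APB-R3 replicate 1 and was −0.42 without APB-R3 replicate 2. The median over the 19 non-muscle genes was −0.01 and lay between −0.05 and 0.02 with 1 library left out.

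Srf, which encodes the transcription factor that binds the CArG box, had 80.2, 59.9 and 60.4 CPM in vehicle and 75.8, 71.3 and 67.9 CPM in APB-R3. The groups overlapped, with both the highest and the lowest value in vehicle, and the log2 fold change was 0.10 (SE 0.12). The 5 members with an exact CArG box had log2 fold changes from −0.24 to 0.14, 3 of them below 0. Of the 25 tested members with a window and no exact box, 15 were below 0, with a range from −0.57 to 0.77.

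Further genes of the pathway, in 3 lists, gave no call either, and 0 of them had an unadjusted p under 0.05. Of the 8 SRF cofactors and antagonists 7 were tested, 3 with a fitted value above 0 and 4 below, and 0 passed in either direction. The smallest p were those of the cofactor Mrtfa (18.4 ± 0.674 CPM in vehicle and 21.7 ± 1.27 in APB-R3), the SRF antagonist Klf4 (29.5 ± 2.54 and 33.5 ± 1.95) and the ternary complex factor Elk4 (6.28 ± 0.221 and 7.68 ± 0.813).

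Of 20 genes of actin nucleation, capping and disassembly, 12 were above 0, 8 below and 0 passed. The smallest p were those of the cortactin gene Cttn (94.9 ± 16.4 CPM in vehicle and 107 ± 8.53 in APB-R3), Cap1 (120 ± 1.61 and 111 ± 8.25) and the capping protein gene Capzb (420 ± 41.7 and 453 ± 68.4). Of 24 further muscle and myosin genes 17 were tested, 7 above 0 and 10 below, and 0 passed. Here the smallest p were those of Pdlim2 (18.9 ± 0.464 and 23.4 ± 5.07 CPM), Myl6b (1.27 ± 0.275 and 0.720 ± 0.417) and Csrp2 (59.5 ± 10.3 and 53.7 ± 5.96; SD, n = 3).

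The 3' ends on which the counts rest are not equally unique. In the GENCODE M21 transcripts, which belong to GRCm38 and not to the build of the counts, every run of 50 bases in the last 300 bases of a gene's coding transcripts was looked up on both strands in all other genes. In 11 of the 34 members some of these windows recurred in another gene, as in 24.0% of 11501 tested genes. More than 30% recurred in 7 members, against 9.18% of the tested genes. For Tagln 52.2% recurred, 203 of 502 windows in the antisense gene Gm48529 and 59 in the neighbour Pcsk7. Gm48529 is not among the symbols of the libraries, and Pcsk7 itself had 21.9 CPM. For Des 41.8% recurred in an antisense gene that had 0 counts. For Myl12a 38.8% recurred, mainly in its near-copy Myl12b at 83.0 CPM. For Actg1 44.5% recurred, led by 391 of its 1005 windows in the processed pseudogene Gm12715, while Actb shared 19. Gm12715 is not among the symbols of the libraries, and neither are Gm9844 and Tpm3-rs7, the only genes sharing windows with Tmsb10 and Tpm3.

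Acta2, with 0 of 502 windows, and Myh11, Cnn1, Lmod1, Myh9 and Myh10 shared none. The levels of Actg1, Tmsb10, Cfl1, Tpm3, Tagln, Des and Myl12a are therefore uncertain, since reads that fit several genes may have been dropped or split, and no source used here gives the strand setting of the counting. The counts cannot show how such reads were treated.

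**Figure D5:**
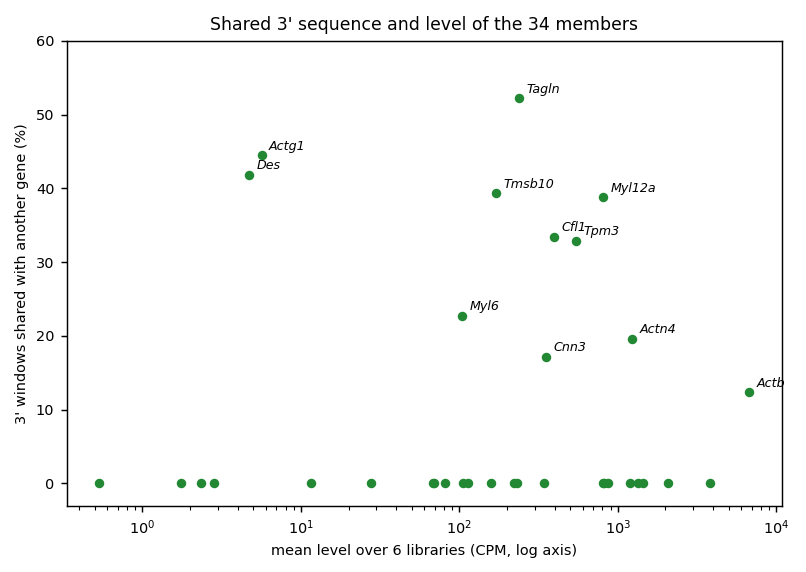
Percentage of the 50-base windows at the 3' end of each member that recur in another gene (vertical) against its mean level over 6 libraries in CPM (horizontal, log axis), 1 point per member, with names for those above 0. Tagln, Actg1 and Des lie highest, and 23 members lie at 0.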

How the data were processed

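Per the labels' protocols, 500 ng of RNA per library went into a Lexogen QuantSeq preparation. Per the submitters' processing notes, bcl2fastq 2.20.0.422, fastp, STAR and HTSeq were used with build GRCm39. Other versions, the annotation and the handling of molecular identifiers are given in no source used here, so the limits given for 0 counts cover counting error only, while intervals of fold changes also hold the spread between libraries. The authors deposited whole-number counts per gene symbol, not normalized. Headers inside the files carry other numbers than the titles, and titles were followed.

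The comparison ran in edgeR 4.0.16 under R 4.3.3, after filterByExpr (minimum count 10, minimum total 15), with TMM factors and the two-sided quasi-likelihood test with treatment as the only term. P-values were adjusted by Benjamini-Hochberg over 12776 tested of 20496 detected genes, with a threshold of 0.05, and the scripts were tested on simulated counts. Levels are CPM of library totals. SE is the log2 fold change over the square root of F. No pair of libraries was a copy (chi-square per degree of freedom 5.54 to 13.6). The members and gene lists were chosen with earlier results of these data known. Named genes are all members, the 3 genes with the smallest p per pathway list (1 further list is not reported here), and the 3 highest and the undetected genes per marker list. Other stellate markers are named after their values were seen. Of the listed markers, Olfr558 was not matched. Alternatives used DESeq2 1.42.0 and limma 3.58.1, other scalings and filters, a replicate block and libraries left out, with APB-R3 replicate 1 and vehicle replicate 2 left out together as a choice made after seeing the data.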

Additional observations from a re-analysis of the deposited data

How the results depend on the processing

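No member passed under any of the 15 alternatives run, in edgeR, DESeq2 or limma-voom. Over all genes 0 passed, 20 without a filter on low counts (8 higher, 12 lower, no member among them) and 0 to 1 with 1 library left out. Genes at an unadjusted p under 0.05 numbered 425, 695 without the filter and 674 without APB-R3 replicate 3. The member count below 0 stayed between 18 and 23. Titles share replicate numbers, but deviations of same-numbered libraries correlated at 0.022, 0.027 and 0.048, each the highest for its number. With the replicate block 0 genes and 0 members passed, 539 genes had an unadjusted p under 0.05 and 21 members lay below 0. The difference in the log2 ratio of smooth muscle to non-muscle sums ran from −0.41 to −0.17 with 1 library left out, was −0.26 without Acta2 and −0.11 as a mean of log2(CPM + 1), and was −0.064 without both APB-R3 replicate 1 and vehicle replicate 2. The share of member promoters with a CArG box was 46.7% with 1 base off allowed, which widens the motif.

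Of 33 members 11 kept their sign throughout and 22 did not, and the cause was not tested. With library totals only, Myh9 (0.00129) and Flna (0.000525) turned. Without both doubted libraries the log2 fold change was 0.050 for Actb, 0.21 for Actg1, 0.092 for Myh11, 0.000732 for Mylk, 0.15 for Tpm2, 0.084 for Tagln, 0.043 for Tagln2, −0.017 for Cald1, 0.28 for Lmod1, −0.084 for Flna, 0.0051 for Palld, −0.087 for Pdlim7, −0.056 for Vim, −0.033 for Tmsb4x, −0.11 for Tmsb10, −0.34 for Cfl1, −0.016 for Srf, −0.029 for Capzb and 0.087 for Csrp2. With 1 library left out it ran from −0.090 to 0.021 for Actb, −0.56 to 0.18 for Actg1, −0.94 to 0.27 for Myh11, −0.012 to 0.0061 for Myh9, −0.24 to −0.036 for Mylk, −0.071 to 0.035 for Tpm1, −0.21 to 0.098 for Tpm2, −0.096 to 0.052 for Cnn2, −0.0038 to 0.051 for Cnn3, −0.35 to −0.063 for Tagln, −0.12 to 0.060 for Tagln2, −0.031 to 0.049 for Cald1, −0.24 to 0.19 for Lmod1, −0.068 to 0.037 for Flna, −0.11 to −0.019 for Palld, −0.071 to 0.077 for Pdlim7, −0.029 to 0.12 for Vim, 0.026 to 0.31 for Tmsb4x, −0.13 to 0.094 for Tmsb10, −0.21 to 0.097 for Pfn1, −0.24 to 0.19 for Cfl1, 0.025 to 0.24 for Srf, −0.028 to 0.21 for Capzb and −0.25 to 0.0067 for Csrp2. Cnn1, Myh11, Lmod1 and Actg2 held so few counts that moderate differences in them were not detectable at this depth.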
